A study of Mus musculus with 7 samples.

Results

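A set of 10 genes that carry the Wnt signal inside the cell was followed across single-cell RNA libraries of mouse bone marrow LSK cells. LSK cells are lineage-negative cells sorted for Sca-1 and cKit, a fraction that holds blood stem cells and multipotent progenitors. The 10 genes were found by symbol among the 32285 genes of the files: Ctnnb1, which encodes beta-catenin; Apc, Axin1, Axin2, Gsk3a, Gsk3b and Csnk1a1 of the destruction complex; and the nuclear cofactors Bcl9, Bcl9l and Pygo2. The study compared mice of the genotype 129S1/C57Bl/6, B4-/-, titled B4galt1 KO (3 libraries), with 129S1/C57Bl/6 mice, titled WT (4 libraries). The knockout is described as a full one, so every tissue of the animal lacks the gene and not the blood cells alone. Neither the age nor the number of mice per library is given, so p-values measure the spread between libraries. B4galt1 encodes a galactosyltransferase that builds sugar chains on glycoproteins.

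Without a Wnt signal, the destruction complex holds beta-catenin so that the kinases Csnk1a1 and Gsk3 can phosphorylate it, which marks it for degradation. Wnt binding to its receptors stops this, and beta-catenin then enters the nucleus and joins Tcf and Lef factors at target genes. Bcl9 and Bcl9l bridge beta-catenin to Pygo proteins, and Axin2 is itself a target gene that feeds back on the signal. Much of this control acts on the protein, which RNA counts do not measure. In blood stem cells the pathway is known for effects on self-renewal that depend on dose.

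A total of 24430 of 36465 barcodes were kept as cells, 1172 to 8862 per library, with a median of 8046 to 11080 UMIs (unique molecules counted) per cell. Kit, the cKit gene, stood at 137 to 311 CPM (the UMIs of a gene scaled to a common library size) and Ly6a, the Sca-1 gene, at 16.6 to 48.2 over the 7 libraries, while the T cell gene Cd3e reached at most 0.49 CPM. Other lineage genes were present: the B cell gene Cd79a at 0.694 to 10.6 CPM, highest in WT-labelled library 4, the globin gene Hbb-bt at 15.9 to 57.5 CPM and the granule gene Mpo at 377 to 3170 CPM. B4galt1 itself did not separate the labels. It stood at 53.2, 53.1 and 31.8 CPM in knockout-labelled libraries 1 to 3 and at 54.2, 60.6, 52.0 and 39.5 in WT-labelled libraries 1 to 4 (log2 fold change -0.14, SE 0.12, edgeR adjusted p = 0.55). The labels do not say which part of the gene is deleted, and reads of the 3′ end outside a deletion check nothing, so each library is called by its label. The libraries also carry 2 lists of barcode sequences. List A covers knockout-labelled libraries 1 and 2 and WT-labelled libraries 1 to 3, and list B covers knockout-labelled library 3 and WT-labelled library 4, which share 88 barcodes (68 of them kept cells). The kept share of barcodes was 32.5 to 49.9% in list A and 96.2 and 98.3% in list B. Each list holds both labels, so the list entered every comparison of labels as a covariate.

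Of the 10 genes, 9 were counted deeply enough for comparison over all cells. Summed over the libraries, the counts ran from 2801 UMIs for Pygo2 to 74727 for Csnk1a1. Axin2, often read as a reporter of beta-catenin activity, gave 98 UMIs in all, 4 to 28 per library, and did not pass the filter on low counts in the all-cell comparison. All levels are CPM after scaling with edgeR's trimmed mean of M-values (TMM). Csnk1a1, the kinase that places the first phosphate on beta-catenin, varied little: 301, 281 and 290 CPM in knockout-labelled libraries 1 to 3 and 277, 290, 282 and 290 CPM in WT-labelled libraries 1 to 4. Pygo2, the reader of histone methylation that Bcl9 proteins bind, lay between 10.5 and 11.6 CPM in all 7 libraries. For both genes the ranges of the lists and of the labels overlapped.

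**Figure D1:**
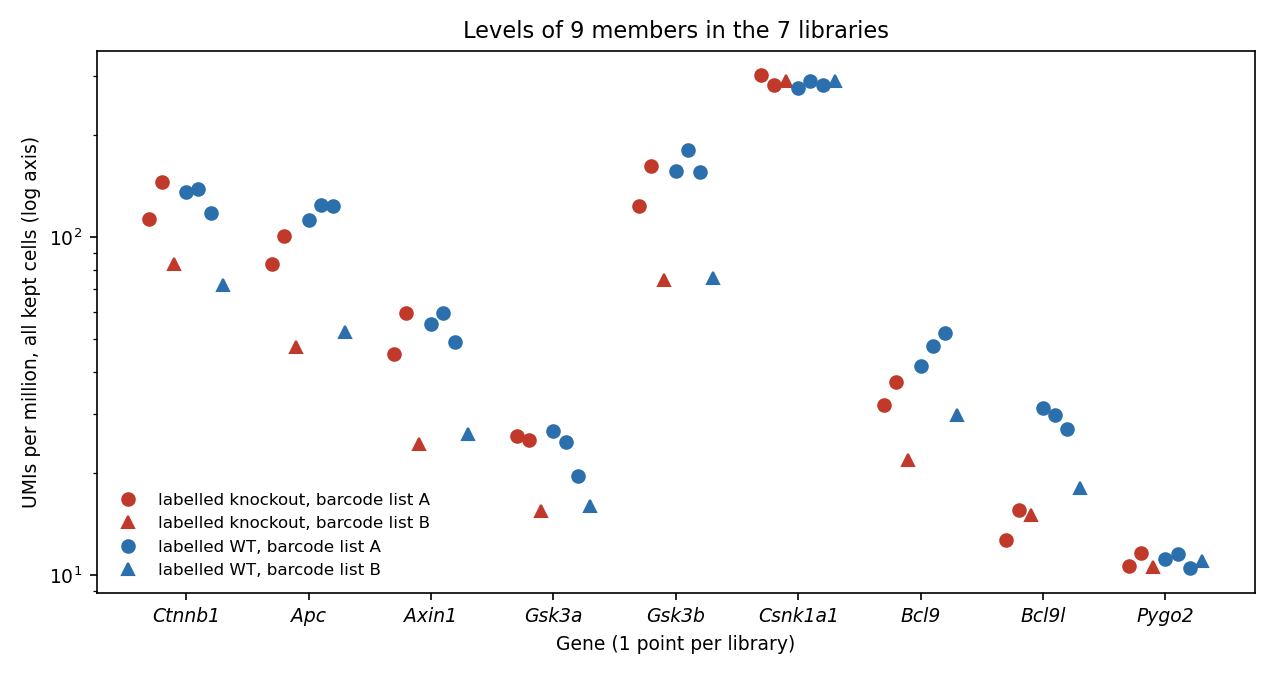
Level of each gene in each library (log axis, CPM over all kept cells), with red for knockout-labelled and blue for WT-labelled libraries, circles for barcode list A and triangles for list B. Ctnnb1, Apc, Axin1, Gsk3a, Gsk3b and Bcl9 were lower in both list B libraries than in any list A library, Csnk1a1 and Pygo2 stayed level, and Bcl9l was lower in all 3 knockout-labelled libraries (12.7 to 15.6) than in the 4 WT-labelled libraries (18.1 to 31.2).

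Most of the genes, Csnk1a1 and Pygo2 apart, stood lower in list B than in list A. Apc, the large scaffold of the complex, stood at 83.5 to 125 CPM in list A and at 47.4 and 52.3 CPM in list B. The fitted difference of list B from list A was -1.09 (SE 0.15, log2) for Apc, -1.08 (SE 0.16) for Axin1, the limiting scaffold, -1.03 (SE 0.17) for Gsk3b and -0.76 (SE 0.16) for Ctnnb1. It was -0.66 (SE 0.14) for Bcl9, -0.63 (SE 0.15) for Gsk3a and -0.31 (SE 0.19) for Bcl9l, against 0.02 (SE 0.15) for Csnk1a1 and -0.04 (SE 0.14) for Pygo2. These values describe the lists and carry no test. Gene length moved with the list: the median over all 15149 genes was -0.01, but -0.74 for genes longer than 100 kb and 0.63 for genes shorter than 10 kb. Gsk3b spans 157.1 kb and Apc 101.6 kb (GENCODE vM21, GRCm38), where Pygo2 spans 4.9 kb. Whether intron reads were counted is not given in the sources used here, and the part of gene length in these differences was not tested.

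**Figure D2:**
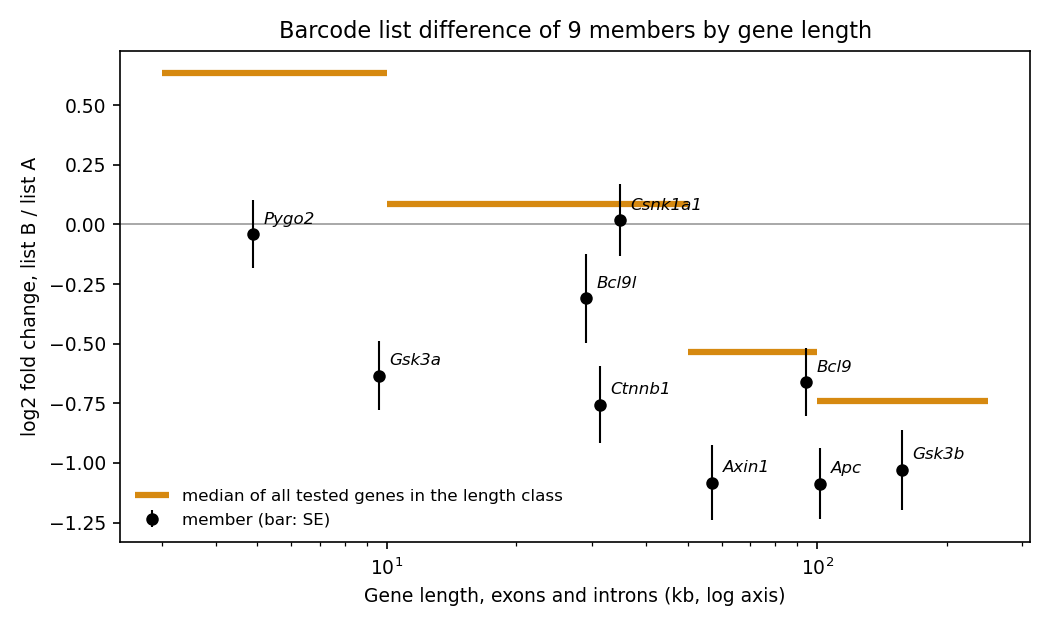
Fitted log2 difference of list B from list A (points, bars are SE) against gene length for 9 members, with orange lines for the median of all tested genes in 4 length classes. Csnk1a1 and Bcl9 lay within 1 SE of the median of their length class, and the other 7 members lay below theirs by more than that.

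The clearest pattern was across cell states, in the cofactors Bcl9 and Bcl9l. Both fell in cells with myeloid markers and in cells with megakaryocyte markers, where neither call held with cells thinned to 3000 UMIs. Apc also fell in cells with granule and monocyte markers. Ctnnb1 and the cofactor Pygo2 did not pass the test in any of the 5 states compared. Cells were assigned to states by how many genes of a fixed marker list they expressed. At least 5 of 9 stem markers (Procr, Hlf, Mecom and others) were found in 8282 cells. The 7397 of them that passed no lineage gate, such as megakaryocyte or lymphoid, were taken as stem-like. Megakaryocyte-like cells held a median of 5 stem markers, the same as stem-like cells, so that comparison is largely among cells with stem markers. The other states were Flt3-positive multipotent-like (5234 cells), granule-monocyte-like (3012), lymphoid-like (1701), megakaryocyte-like (516), erythroid-like (174), neutrophil-like (162), T and NK-like (79) and basophil and mast-like (48). Counts were summed per library and state, states with at least 20 cells of a library were used, and each was compared with the stem-like cells of the same library. The 5 comparisons share those stem-like sums and are given side by side. Granule-monocyte-like cells differed from stem-like cells in other ways too, with a median of 18717 against 8097 UMIs per cell and 73.5% against 20.4% of cells with at least 5 G2/M markers. These gates rest on counts of detected markers, so deep cells enter a state more easily. The stem gate is a cut in a range, with 4222 cells at the minimum of 5 markers and 5254 with 1 marker fewer. With cells thinned to 3000 UMIs before gating, the calls of Bcl9, Bcl9l, Apc and Gsk3b in granule-monocyte-like cells held. Those of Bcl9 and Bcl9l in neutrophil-like cells held too, but on 36 cells of knockout-labelled library 1 and 24 of WT-labelled library 3. Every other member's call in the state comparisons ended, with its thinned value given beside the result.

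Bcl9l (chromosome 9, 44482825 to 44511896, plus strand, GRCm38) and Bcl9 (chromosome 3, 97203662 to 97297917, minus strand) both fell in granule-monocyte-like cells. Its level in stem-like cells was 20.1, 21.0 and 18.4 CPM in knockout-labelled libraries 1 to 3 and 32.4, 30.5, 28.0 and 18.9 CPM in WT-labelled libraries 1 to 4. In granule-monocyte-like cells of the same libraries it was 8.83, 10.9 and 9.38 CPM and 11.1, 17.1, 13 and 9.63 CPM. All 7 libraries were lower, and the ranges of the states did not overlap. Fitted over all libraries, Bcl9l changed by -1.05 on the log2 scale (SE 0.12, edgeR adjusted p = 1.47e-10), which leaves 48.2% of the stem-like level, and the exact paired sign-flip test over 7 libraries gave p = 0.0156, the smallest it can give.

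Bcl9 fell in the same cells. Stem-like cells held 42.3, 46.2 and 24.8 CPM in the knockout-labelled and 46.9, 48.7, 54.6 and 32.6 CPM in the WT-labelled libraries. Granule-monocyte-like cells held 24.6, 27.2 and 18.8 CPM and 27.9, 28.8, 21.1 and 17.4 CPM. Each library was lower, though the stem-like level of knockout-labelled library 3 overlapped the granule-monocyte-like levels of list A. The fitted change was -0.76 (SE 0.09, edgeR adjusted p = 1.00e-09; exact sign-flip p = 0.0156, 7 of 7 libraries lower). List by list, Bcl9 gave -0.93 (SE 0.11) in list A and -0.58 (SE 0.13) in list B, and Bcl9l gave -1.21 (SE 0.14) and -0.92 (SE 0.17). Both genes were called in granule-monocyte-like cells under all 16 alternatives run.

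**Figure D3:**
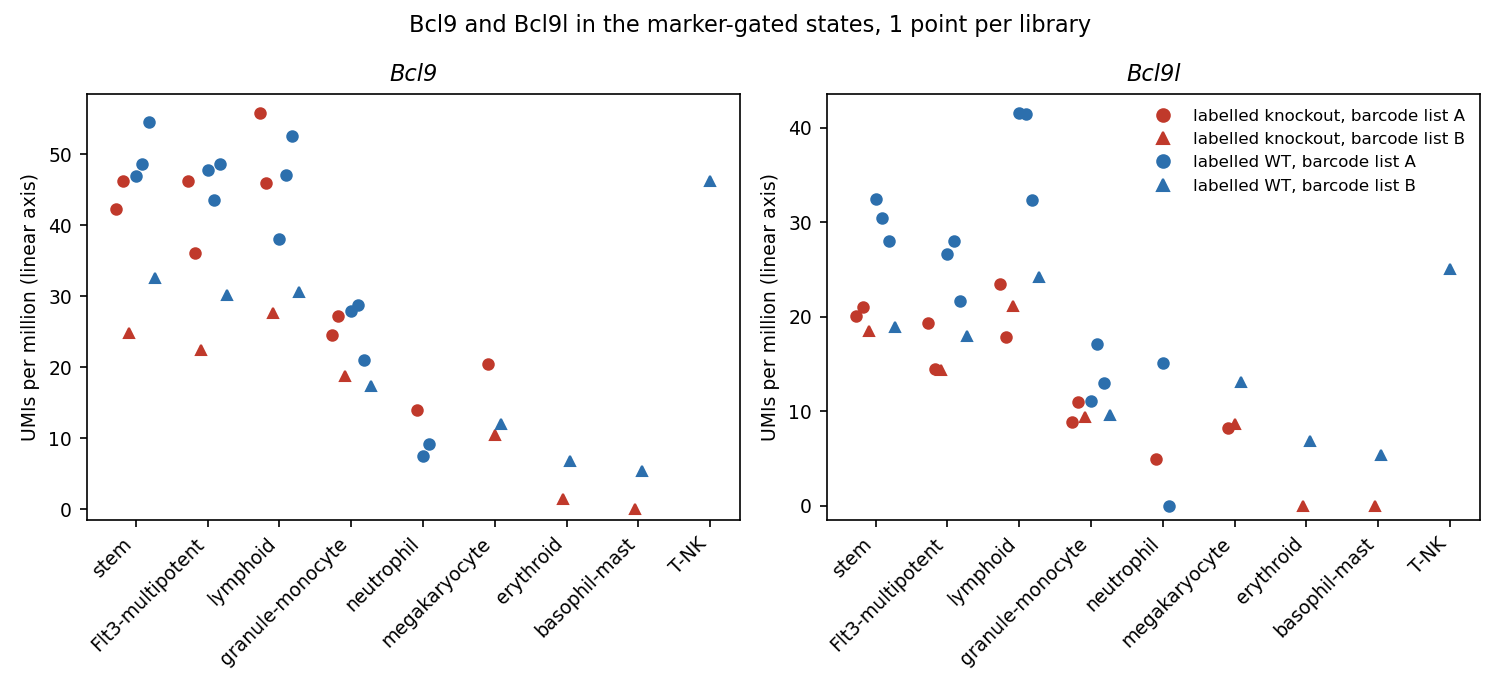
Bcl9 (left) and Bcl9l (right) in each marker-gated state (linear axis, CPM, 1 point per library with at least 20 cells in the state); red is knockout-labelled, blue WT-labelled, circles list A and triangles list B. Stem-like, Flt3-positive and lymphoid-like cells share a range. In the granule-monocyte, neutrophil, megakaryocyte, erythroid and basophil and mast states each library lies below its own stem-like cells, though levels overlap in part between libraries. Bcl9l falls to 0 UMIs in 2 states of knockout-labelled library 3 and in the neutrophil state of WT-labelled library 3. The basophil and mast points rest on 0 or 1 UMI each, so a fall is not shown there.

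In megakaryocyte-like cells both cofactors fell again. Enough such cells came from knockout-labelled libraries 1 and 3 and WT-labelled library 4. Bcl9 stood at 20.4, 10.5 and 12.0 CPM there, against 42.3, 24.8 and 32.6 CPM in their stem-like cells. The fitted change was -1.34 (SE 0.17, edgeR adjusted p = 5.42e-08). Bcl9l stood at 8.17, 8.65 and 13.1 CPM against 20.1, 18.4 and 18.9 CPM, a fitted change of -0.87 (SE 0.20, edgeR adjusted p = 9.63e-04). The 3 libraries were lower for both genes, but an exact sign-flip test on 3 libraries cannot go below p = 0.25. The levels rest on 82 UMIs of Bcl9 and 72 of Bcl9l. With cells thinned before gating neither call held (Bcl9 -1.75, SE 0.86, adjusted p = 0.19; Bcl9l -1.27, SE 0.92, adjusted p = 0.43), and only knockout-labelled library 3 and WT-labelled library 4 then kept enough cells. Bcl9l was also not called in the WT-labelled libraries alone (-0.61, SE 0.26, adjusted p = 0.15). Whether Bcl9 and Bcl9l fell by different amounts was not tested.

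Neutrophil-like cells, which carry secondary granule markers, came from knockout-labelled library 1 and WT-labelled libraries 1 and 3. Bcl9 stood at 14.0, 7.54 and 9.22 CPM and Bcl9l at 4.89, 15.1 and 0 CPM there. These are 23 and 9 UMIs in all. The log2 fold changes were -1.87 for Bcl9 (SE 0.26, edgeR adjusted p = 1.14e-07) and -2.09 for Bcl9l (SE 0.39, edgeR adjusted p = 2.46e-05). For each gene 3 of 3 libraries were lower. Over the alternatives the values ran from -8.12 to -1.65 for Bcl9 and from -6.99 to -1.82 for Bcl9l. Both calls held with thinned cells, but counts this low set the size of the change poorly.

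Erythroid-like and basophil and mast-like cells reached 20 cells only in the list B libraries and were described without a test. In erythroid-like cells Bcl9 gave 1 UMI in knockout-labelled library 3 and 16 UMIs in WT-labelled library 4. The ratios to the stem-like cells of the same library were 0.0561 (95% exact interval 0.00142 to 0.314) and 0.209 (0.119 to 0.341). Bcl9l gave 0 UMIs, which allows a ratio of up to 0.28, and 16 UMIs with a ratio of 0.36 (0.204 to 0.591). Ctnnb1 in the same cells gave 60 and 216 UMIs, with ratios of 1.11 (0.845 to 1.44) and 1.37 (1.18 to 1.57), so the low counts of the cofactors were not shared by beta-catenin. In basophil and mast-like cells Bcl9 and Bcl9l gave 0 UMIs each in knockout-labelled library 3 and 1 UMI each in WT-labelled library 4, where 3 counts correspond to 12.7 and 16.2 CPM, so absence is not shown there. These intervals cover counting error only. T and NK-like cells reached 20 cells in WT-labelled library 4 alone, with 46.2 CPM of Bcl9 and 25 CPM of Bcl9l.

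Lymphoid-like and Flt3-positive multipotent-like cells kept the cofactors near the stem-like level. Bcl9 differed from it by -0.02 (SE 0.09) and -0.11 (SE 0.08), with adjusted p = 0.92 and 0.36. Bcl9l was higher in lymphoid-like cells by 0.28 (SE 0.11, edgeR adjusted p = 0.042; 6 of 7 libraries higher, exact sign-flip p = 0.0781). That call ended without knockout-labelled library 3 or any WT-labelled library, with values of 0.23 to 0.30, and with thinned cells it was at 0.40 (SE 0.24, adjusted p = 0.23). It also ended with DESeq2 (0.23, SE 0.12, adjusted p = 0.15) and in the knockout-labelled libraries alone (0.14, SE 0.21, adjusted p = 0.76). In Flt3-positive cells Bcl9l was at -0.24 (SE 0.10, adjusted p = 0.086), lower in 7 of 7 libraries, and it was called without knockout-labelled library 1 (-0.28, SE 0.10, adjusted p = 0.022) or WT-labelled library 4 (-0.31, SE 0.11, adjusted p = 0.039).

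**Figure D4:**
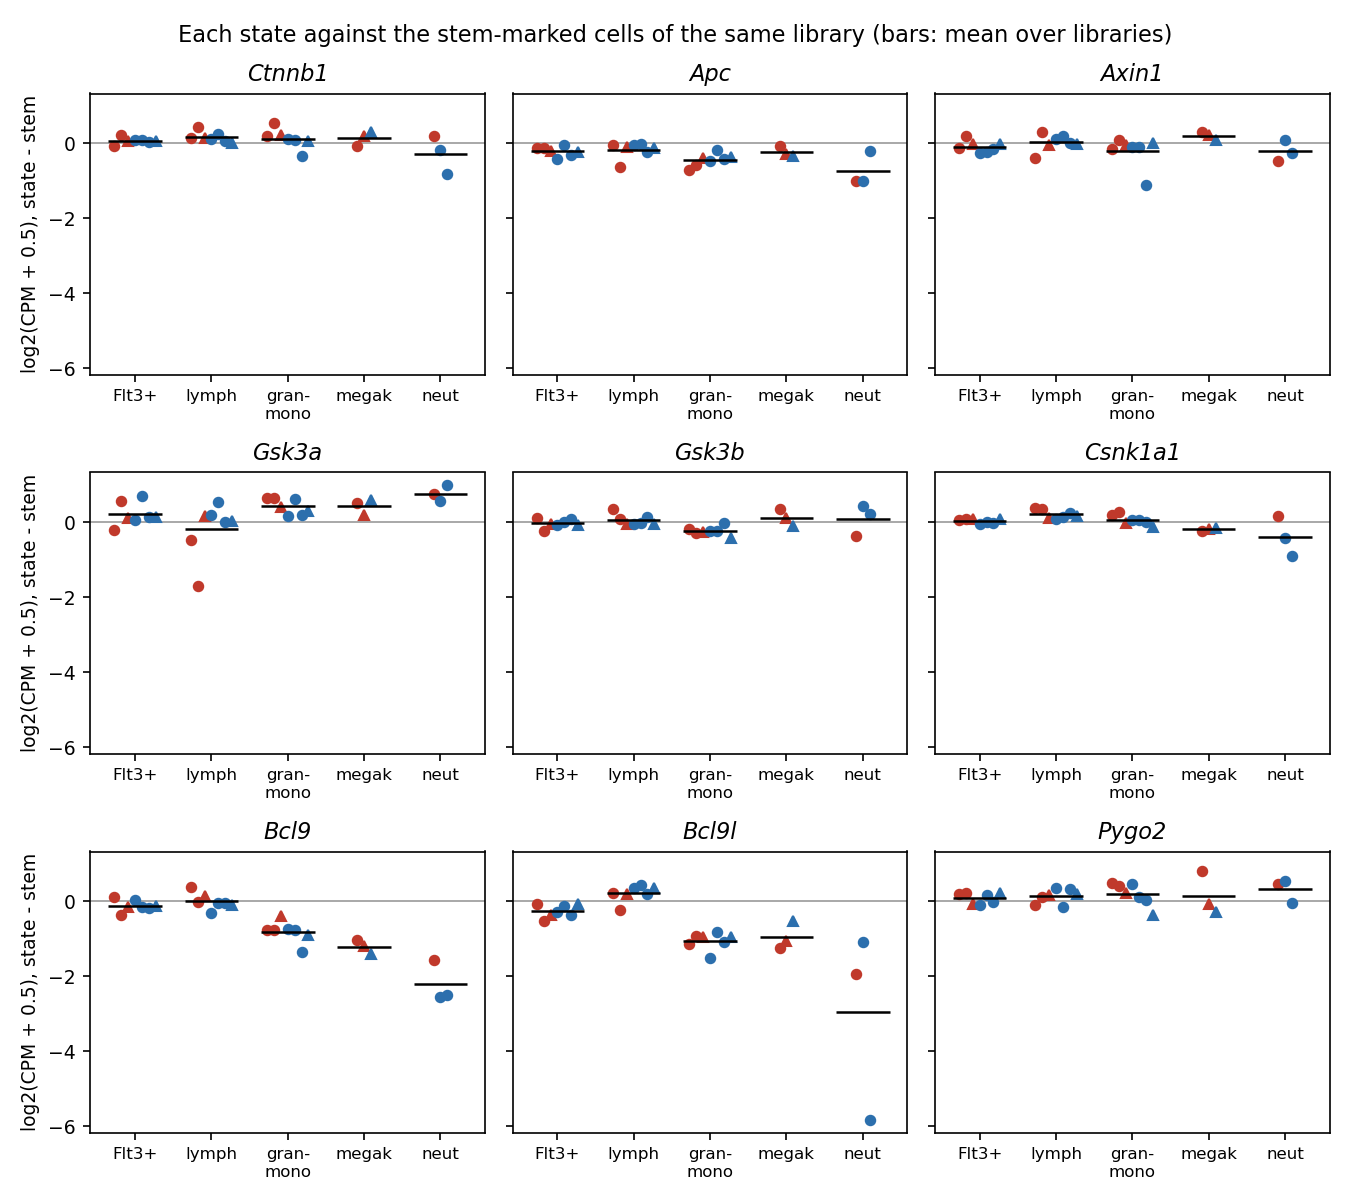
Difference of each state from the stem-like cells of the same library on the log2(CPM + 0.5) scale, 1 point per library (red knockout-labelled, blue WT-labelled, circles list A, triangles list B), with black bars for means. Bcl9 and Bcl9l lie below 0 in every library of the granule-monocyte, megakaryocyte and neutrophil states; the lowest Bcl9l point, -5.83, is a library with 0 UMIs and depends on the added 0.5.

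Of the destruction complex, Apc fell and Gsk3a rose in granule-monocyte-like cells. Together with the cofactors, 5 of the 10 genes were called there, 4 lower and 1 higher, against 62.4% of all 15086 genes (32.1% higher and 30.3% lower), so the share of members called was not above the background. Apc was at -0.46 (SE 0.08, edgeR adjusted p = 1.49e-06), lower in 7 of 7 libraries (exact sign-flip p = 0.0156), and was called under all 16 alternatives. Gsk3b, the more studied of the paired Gsk3 kinases, was at -0.23 (SE 0.08, edgeR adjusted p = 0.0070), also lower in 7 of 7 libraries. Its call ended in the knockout-labelled libraries alone (-0.23, SE 0.11, adjusted p = 0.077) and with no filter on low counts (-0.19, SE 0.09, adjusted p = 0.083). Gene length moved with this contrast as well. The median was -0.32 over genes longer than 100 kb, -0.14 at 50 to 100 kb, 0.07 at 10 to 50 kb and 0.17 below 10 kb. Apc and Gsk3b belong to the longest class, Bcl9 (94.3 kb) to the next and Bcl9l (29.1 kb) to the class of 10 to 50 kb. Gsk3a (9.6 kb), the member called higher, belongs to the shortest. The part of length in these calls was not tested.

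Gsk3a, the other Gsk3 kinase, went the opposite way. It stood at 18.4, 17.6 and 13.8 CPM in stem-like cells of the knockout-labelled libraries and 25.3, 18.4, 18.3 and 14.5 CPM in the WT-labelled ones. Granule-monocyte-like cells held 29.3, 27.8 and 18.6 CPM and 28.5, 28.8, 21.1 and 18.1 CPM. Each library was higher, with overlapping ranges between libraries. The fitted change was 0.50 (SE 0.11, edgeR adjusted p = 9.71e-05; 7 of 7 libraries higher, exact sign-flip p = 0.0156). It was not called in the WT-labelled libraries alone (0.28, SE 0.14, adjusted p = 0.086) or with thinned cells (0.52, SE 0.28, adjusted p = 0.10), and was at 0.25 (SE 0.10, adjusted p = 0.037) without TMM factors. Gsk3a was also higher in megakaryocyte-like cells, by 0.47 (SE 0.18, edgeR adjusted p = 0.046), and in neutrophil-like cells, by 0.84 (SE 0.25, edgeR adjusted p = 0.0050). The megakaryocyte call ended without knockout-labelled library 3 (0.61, SE 0.24, adjusted p = 0.097), WT-labelled library 2 (0.44, SE 0.18, adjusted p = 0.072) or WT-labelled library 4 (0.31, SE 0.24, adjusted p = 0.39), in the knockout-labelled libraries alone (0.31, SE 0.27, adjusted p = 0.47) and with thinned cells (0.13, SE 0.92, adjusted p = 0.95), and held under 7 of 16 alternatives. The neutrophil call ended without knockout-labelled library 1 (0.78, SE 0.46, adjusted p = 0.25), in the WT-labelled libraries alone (0.88, SE 0.44, adjusted p = 0.16), with a gate of 1 more marker (0.85, SE 0.41, adjusted p = 0.12) and with thinned cells (0.42, SE 0.95, adjusted p = 0.80). An antisense gene, 9130221H12Rik, overlaps Gsk3a, and the strand setting of the counting is not given.

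In the other states fewer members passed the test. In megakaryocyte-like cells 3 of 10 were called, 2 lower and 1 higher, where 23.9% of all genes were called (11.2% higher and 12.7% lower). In neutrophil-like cells 4 of 10 were called, 3 lower and 1 higher, where 41.8% of all genes were (21.9% higher and 19.9% lower). Apc was the third gene lower there, at -0.77 (SE 0.16, edgeR adjusted p = 1.45e-04), and the call ended without knockout-labelled library 1 (-0.53, SE 0.25, adjusted p = 0.13), in the WT-labelled libraries alone (-0.42, SE 0.23, adjusted p = 0.22), with a gate of 1 more marker (-0.43, SE 0.24, adjusted p = 0.20) and with thinned cells (-0.74, SE 0.46, adjusted p = 0.25). Genes longer than 100 kb, Apc among them, had a median of -0.66 in the neutrophil contrast and -0.13 in the Flt3-positive contrast. The part of length in the Apc values was not tested. In lymphoid-like cells 2 of 10 were called, both higher, where 16.8% of all genes were called higher and 32.9% in either direction. The second was Csnk1a1 at 0.21 (SE 0.08, edgeR adjusted p = 0.035), which was not called without any 1 of the knockout-labelled libraries or without WT-labelled library 2 or 4 (0.15 to 0.23), or with thinned cells (0.13, SE 0.11, adjusted p = 0.44). In neutrophil-like cells Csnk1a1 was at -0.20 (SE 0.13, adjusted p = 0.24) but at -0.79 (SE 0.18, adjusted p = 8.66e-04) without knockout-labelled library 1. In Flt3-positive cells 1 of 10 was called against 26.2% of all genes (12.8% lower), Apc at -0.20 (SE 0.07, edgeR adjusted p = 0.036). That call ended without WT-labelled library 1, 3 or 4, with values of -0.17 to -0.23, and with thinned cells it was at -0.088 (SE 0.14, adjusted p = 0.70).

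Scaling matters for these directions. Without TMM factors the median gene moved by -0.25 in the granule-monocyte contrast and by -0.57 in the neutrophil contrast, and the calls shifted from 4848 higher and 4573 lower to 3115 and 6695 in the former, and from 3301 and 2998 to 1668 and 6159 in the latter. In Flt3-positive cells they shifted from 2025 higher and 1930 lower to 1153 and 2789, in lymphoid-like cells from 2533 and 2432 to 1769 and 3113, and between the labels over all cells from 70 and 92 to 51 and 94. Bcl9, Bcl9l and Apc stayed lower in both states under both scalings. Csnk1a1 in granule-monocyte-like cells went from 0.07 to -0.18 (SE 0.07, adjusted p = 0.033). Gsk3a in neutrophil-like cells was no longer called (0.27, SE 0.23, adjusted p = 0.42). These changes are therefore relative to the median gene of each state.

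Beta-catenin itself was not called. Ctnnb1 in granule-monocyte-like cells was at 0.16 (SE 0.08, edgeR adjusted p = 0.073), with levels from 70.4 to 159 CPM against 67.3 to 129 CPM in stem-like cells, and at -0.09 (SE 0.07) without TMM factors. It was called without WT-labelled library 3 (0.21, SE 0.07, adjusted p = 0.014) and in the knockout-labelled libraries alone (0.31, SE 0.11, adjusted p = 0.017). Its values in the Flt3-positive, lymphoid, megakaryocyte and neutrophil states were 0.07 (SE 0.08), 0.15 (SE 0.08), 0.21 (SE 0.12) and 0.01 (SE 0.15), the last at -0.56 (SE 0.14, adjusted p = 8.03e-04) without TMM factors. In lymphoid-like cells 7 of 7 libraries were higher for Ctnnb1 (exact sign-flip p = 0.0156) and in Flt3-positive cells 6 of 7 were (exact sign-flip p = 0.0469). In megakaryocyte-like cells Ctnnb1 was called with list B only (0.31, SE 0.10, adjusted p = 0.027) and with a gate of 1 more marker (0.38, SE 0.14, adjusted p = 0.030). 4930593C16Rik and Ulk4 overlap Ctnnb1 on the opposite strand and Cxcr5 overlaps Bcl9l, and their reads cannot be told apart if strand was not used. Axin1 lay between -0.31 (SE 0.19) and 0.20 (SE 0.13) over the 5 states, and Pygo2, the partner that Bcl9 proteins bridge to, between -0.03 (SE 0.21) and 0.30 (SE 0.33). No Axin1 or Pygo2 value passed the edgeR test. DESeq2 called Axin1 lower in granule-monocyte-like cells (-0.25, SE 0.07, adjusted p = 0.0016) and neutrophil-like cells (-0.49, SE 0.20, adjusted p = 0.039), where edgeR without TMM factors gave -0.36 (SE 0.08, adjusted p = 1.09e-04) and -0.89 (SE 0.18, adjusted p = 7.21e-05). Axin2 gave 21 UMIs in all stem-like cells and 32 in all granule-monocyte-like cells, and a difference was not detectable at this depth (0.87, SE 0.51, adjusted p = 0.13).

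Within stem-like cells Bcl9 and Bcl9l were lower in cells with G2/M markers. Cells with at least 5 of 15 G2/M markers were set against the rest of the stem-like cells of the same library, over all 7 libraries. Of 9 members, 3 were called, 2 lower and 1 higher, where 49.1% of 12187 genes were called (23.9% higher and 25.2% lower). Bcl9l stood at 15.5, 26.0 and 18.3 CPM in the G2/M-marked cells of the knockout-labelled libraries and at 28.3, 26.9, 19.1 and 18.6 CPM in those of the WT-labelled libraries. The remaining stem-like cells held 25, 23.6 and 21.1 CPM and 39.4, 41.6, 37.4 and 22.0 CPM. In all, 6 of 7 libraries were lower, all but knockout-labelled library 2. The fitted change was -0.42 (SE 0.10, edgeR adjusted p = 2.64e-04; exact sign-flip p = 0.0312). Bcl9 was at -0.31 (SE 0.08, edgeR adjusted p = 6.46e-04), lower in 7 of 7 libraries (exact sign-flip p = 0.0156). Axin1 was higher by 0.20 (SE 0.07, edgeR adjusted p = 0.022), and this call ended without WT-labelled library 3 (0.18, adjusted p = 0.068) or 4 (0.16, adjusted p = 0.15), with DESeq2 (adjusted p = 0.097), with no gene filter (adjusted p = 0.056), without TMM factors (adjusted p = 0.060) and over all kept cells (0.078, SE 0.05, adjusted p = 0.24). Csnk1a1, not called, was at -0.09 (SE 0.05, edgeR adjusted p = 0.11), lower in 7 of 7 libraries (exact sign-flip p = 0.0156). Without TMM factors it was called (-0.12, SE 0.05, edgeR adjusted p = 0.022). Gsk3a (0.18, SE 0.11) and Pygo2 (0.23, SE 0.13), both at edgeR adjusted p = 0.15, were higher in 6 of 7 libraries (exact sign-flip p = 0.0469 and 0.0781). With thinned cells only 24 and 27 G2/M-marked cells of the list B libraries were left and no member was called. Bcl9 was then at 0.12 (SE 0.72), so that fit says little about direction.

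Between the labels, over all cells, none of 9 members passed the test, where 1.07% of 15149 genes were called (0.462% higher and 0.607% lower). By edgeR 3 members had an unadjusted p below 0.05, as did 2861 of the 15149 genes. DESeq2 called 2 members, Bcl9l and Bcl9. Over the alternatives, DESeq2 among them, 0 to 864 of all genes were called. Bcl9l stood at 12.7, 15.6 and 15.0 CPM in knockout-labelled libraries 1 to 3 and at 31.2, 29.8, 27.1 and 18.1 CPM in WT-labelled libraries 1 to 4. The groups did not overlap, although in list B the libraries stood close. The fitted difference was -0.81 (SE 0.17, edgeR adjusted p = 0.061). With list A alone it was -1.08 (SE 0.17, edgeR adjusted p = 0.016), and DESeq2 gave -0.81 (SE 0.20, adjusted p = 0.0032). With a library left out, the edgeR adjusted p reached up to 0.175. The difference was -1.07 (SE 0.16) without WT-labelled library 4 and -1.07 (SE 0.16) without knockout-labelled library 3. Either choice leaves 1 library in list B, which the list covariate absorbs. Both fits therefore in effect repeat the one with list A alone. Bcl9 was at -0.45 (SE 0.13, adjusted p = 0.12) and Apc at -0.31 (SE 0.13, adjusted p = 0.24). The other 6 tested members lay between -0.15 (Gsk3b, SE 0.15) and 0.06 (Gsk3a, SE 0.13).

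The mix of cell states differed between the labels at the same time, and in sums over all cells a change in the share of a state and a change of RNA per cell cannot be told apart. Granule-monocyte-like cells, in which Bcl9l was low, made up 40.3, 31.3 and 10.8% of the cells of the knockout-labelled libraries and 8.20, 4.61, 2.47 and 3.42% of those of the WT-labelled libraries. Lymphoid-like cells, in which Bcl9l was at 0.28 against stem-like cells, made up 1.86, 2.26 and 4.97% under the knockout label and 12.4, 13.1, 15.2 and 8.21% under the WT label. Neither share overlapped between the labels. A further fit left out granule-monocyte-like, neutrophil-like, T and NK-like and B-like cells, and cells that passed several lineage gates. The difference in Bcl9l was then -0.50 (SE 0.13, edgeR adjusted p = 0.21), and that in Bcl9 was -0.24 (SE 0.12, adjusted p = 0.83).

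**Figure D5:**
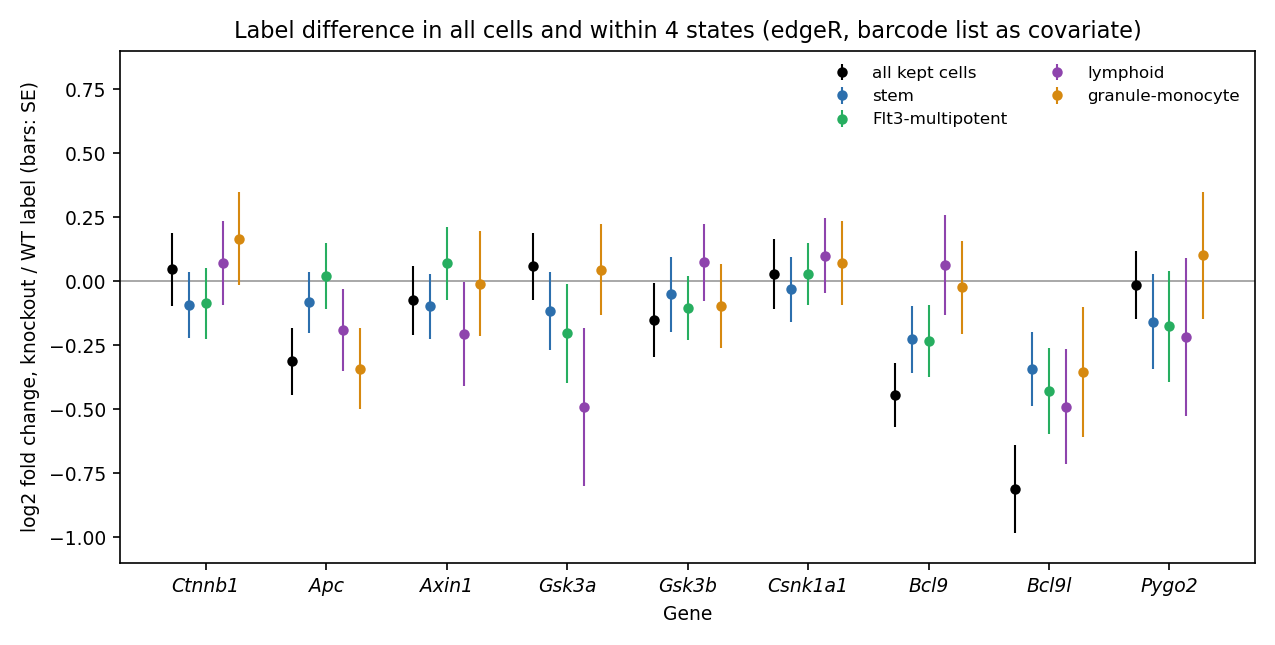
Log2 fold change of knockout-labelled against WT-labelled libraries (points, bars are SE) for 9 members over all kept cells and within 4 states, with the barcode list as covariate. Bcl9l lies below 0 in all 5 fits and is nearer to 0 within the states (-0.34 to -0.49) than over all cells (-0.81).

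Within single states the labels did not separate any member. In stem-like cells 0 of 9 members were called, where 0.0697% of 12914 genes were (0.0465% higher and 0.0232% lower). In Flt3-positive, granule-monocyte-like and lymphoid-like cells the counts were 0 of 9 each. Of all genes, 0.474% were called in Flt3-positive cells (0.291% higher and 0.183% lower), 0.105% in granule-monocyte-like cells (0.00809% and 0.0971%) and 0.132% in lymphoid-like cells (0.0794% and 0.0529%). By edgeR, 581 of 12914 genes had an unadjusted p below 0.05 in stem-like cells and 694 of 12030 in Flt3-positive cells. In granule-monocyte-like cells 746 of 12357 genes did, and in lymphoid-like cells 499 of 11340. In each state 1 member had an unadjusted p below 0.05 by edgeR, and DESeq2 called no member. The member was Bcl9l in stem-like cells (-0.34, SE 0.15, adjusted p = 1.00), Flt3-positive cells (-0.43, SE 0.17, adjusted p = 0.67) and lymphoid-like cells (-0.49, SE 0.22, adjusted p = 1.00), and Apc in granule-monocyte-like cells (-0.34, SE 0.16, adjusted p = 0.83). In stem-like cells of list A, Bcl9l was at 20.1 and 21.0 CPM under the knockout label and at 28.0 to 32.4 CPM under the WT label, which did not overlap. In list B it was at 18.4 and 18.9 CPM, a ratio of 0.976 (95% exact interval 0.85 to 1.12). The 7 granule markers summed to 679, 832 and 724 CPM in the stem-like cells of the knockout-labelled libraries and to 441, 465, 339 and 531 CPM in those of the WT-labelled libraries, and their part in these values was not tested.

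Whether the label difference itself differed between the barcode lists was tested as an interaction. None of 10 members was called by edgeR, where 0.0252% of 15876 genes were, and DESeq2 called no member. By edgeR 390 of all genes had an unadjusted p below 0.05, and 1 member did. That member was Bcl9l, whose label difference was 0.80 (SE 0.30) higher in list B than in list A (unadjusted p = 0.021 and adjusted p = 1.00 by edgeR). List B has 1 library per label, so its spread was taken from list A. Over all cells of list B, the ratio of knockout-labelled library 3 to WT-labelled library 4 was 0.832 for Bcl9l (95% exact interval 0.767 to 0.902), 0.74 for Bcl9 (0.693 to 0.789), 0.906 for Apc (0.865 to 0.948) and 1.15 for Ctnnb1 (1.11 to 1.19). These intervals compare the 2 libraries and not the conditions.

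Other genes of the pathway came from 5 lists. Of 18 tested Wnt receptors and co-receptors (23 in the list), 11 were lower and 2 higher in granule-monocyte-like cells than in stem-like cells, where 30.3% of all genes were lower and 32.1% higher, with a list median of -1.03 against -0.0036 over all genes. Ryk, a receptor-like pseudokinase for Wnt, was at -2.94 (SE 0.19, edgeR adjusted p = 2.57e-17), Fzd6 at -1.86 (SE 0.18, adjusted p = 3.38e-12) and Fzd3 at -1.76 (SE 0.19, adjusted p = 1.11e-10), both Frizzled receptors. In Flt3-positive cells 9 were lower and 2 higher, in lymphoid-like cells 10 and 2, in megakaryocyte-like cells 4 and 0, and in neutrophil-like cells 8 and 1. Of all genes, 12.8%, 16.1%, 12.7% and 19.9% were lower in these states and 13.4%, 16.8%, 11.2% and 21.9% higher. In either direction 26.2%, 32.9%, 23.9% and 41.8% were called. The total megakaryocyte count is thus at the background and the total neutrophil count near it.

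Of 13 tested Tcf/Lef factors and corepressors, 4 were lower and 4 higher in granule-monocyte-like cells, a share at the background of 62.4%. Tcf7l2, a factor that beta-catenin binds on DNA, was at -1.35 (SE 0.11, edgeR adjusted p = 2.94e-13), Tcf7l1 at -2.02 (SE 0.20, adjusted p = 7.56e-12) and Tle2, a Groucho corepressor, at -2.10 (SE 0.20, adjusted p = 1.14e-12). Tcf7l2 was also lower in megakaryocyte-like cells, at -1.04 (SE 0.18, adjusted p = 3.61e-05), and in neutrophil-like cells, at -3.53 (SE 0.39, adjusted p = 8.46e-10). In lymphoid-like cells Tle3 was higher, at 1.05 (SE 0.13, adjusted p = 9.20e-09), and Tle2, at -1.44 (SE 0.20, adjusted p = 8.50e-08), and Ctbp2, at -0.48 (SE 0.11, adjusted p = 8.12e-04), were lower.

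Of 37 tested other intracellular components, 12 were lower and 5 higher in granule-monocyte-like cells, with a median of -0.06 and a share below the 62.4% of all genes. Ppp2ca, the catalytic subunit of the phosphatase PP2A, was at 0.49 (SE 0.07, edgeR adjusted p = 2.40e-07) and Cby1, an antagonist of beta-catenin, at 0.67 (SE 0.10, adjusted p = 3.36e-07). Of 18 tested Wnt target genes, 7 were higher and 4 lower in the same cells, with a median of 0.09, again a share near 62.4%. Birc5, a gene of mitosis and survival that is also among the G2/M markers used here, was at 1.51 (SE 0.11, edgeR adjusted p = 2.45e-15). Rnf43 was at 2.87 (SE 0.38, edgeR adjusted p = 8.77e-09). Znrf3, which removes Wnt receptors from the cell surface, was at -0.58 (SE 0.09, edgeR adjusted p = 1.31e-07). Rnf43 and Znrf3 are also in the receptor list, and they went opposite ways. Of 10 tested partners of beta-catenin at cell junctions, 4 were lower and 1 higher, also below that share, among them the cadherin gene Cdh2 at -2.98 (SE 0.49, adjusted p = 1.02e-06).

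Between the labels, over all cells, 1 gene of each of 3 lists was called and none of the other 2. Of all genes, 1.07% were called (0.462% higher and 0.607% lower). The 3 genes, from lists with 13, 18 and 17 genes tested, were Tcf7l1, the receptor gene Ror2 and Ccnd1, cyclin D1. Tcf7l1 was at -0.99 (SE 0.18, edgeR adjusted p = 0.039), Ror2 at -1.42 (SE 0.27, edgeR adjusted p = 0.042) and Ccnd1 at -1.01 (SE 0.19, edgeR adjusted p = 0.040). The mix of cell states differed between the labels, and its part in these values was not tested. Ccnd1 was also lower in Flt3-positive cells of the knockout-labelled libraries, at -1.12 (SE 0.16, adjusted p = 0.0021), and no other gene of the 5 lists was called within a state.

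The genes whose pattern was most like each member were ranked over 39 sums of library and state, after each library's mean had been subtracted, among 7083 genes with a mean of at least 20 CPM. For Bcl9l the first was Bcl9 (Pearson r = 0.89) and the second Ndst1 (0.888), a heparan sulfate enzyme gene. For Bcl9 they were Dusp2 (0.914), a phosphatase of nuclear MAP kinases, and Reps1 (0.897). Apc was closest to Tanc2 (0.904) and Syn3 (0.883), Csnk1a1 to Thoc2 (0.919) and Bcr (0.881), and Gsk3b to Kmt2e (0.841) and Mtmr12 (0.84). Ctnnb1 was closest to Prrc2a (0.849) and Prmt5 (0.811), and Gsk3a to Rpp14 (0.837) and Rnf7 (0.828). Axin1 (Crk at 0.725, C1galt1 at 0.671) and Pygo2 (Dhx16 at 0.624, Usf2 at 0.593) had the weakest matches. The points share libraries, depth and gates, so these values are descriptions.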

How the data were processed

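UMI counts per gene and barcode were deposited by the authors as 1 sparse matrix per library. The submitters' processing notes name Cell Ranger 7.0.0, Seurat 4.4.0 and mm10; annotation, intron setting and cell filter are not given in the sources used here. Cells had at least 1000 UMIs, 500 genes and at most 10% mitochondrial UMIs. Library totals ranged from 14970791 to 89747946 UMIs. States were gated by numbers of detected markers, with minimums set after marker distributions were seen; cells in several primed gates were left out, and no doublet caller was run. Counts were summed per library or state and tested with edgeR 4.0.16 (TMM, filterByExpr, robust quasi-likelihood test, two-sided, Benjamini-Hochberg over all tested genes, threshold 0.05) in R 4.3.3, with the barcode list (label) or library (state, cycle) in the model; DESeq2 1.42.0 was an alternative. The code was tested on simulated data. Other genes named were at most 3 called per list and comparison, by p, and the 2 most alike per member. Members and lists were chosen with earlier results of these data known. Libraries of a label were not copies of each other.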

Additional observations from a re-analysis of the deposited data

Results flagged for a closer look

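Groups of 4 to 10 values were searched for a value far from the rest, 81 groups in all. There were 10 flags, the Csnk1a1 means by list among them. Chance alone flags some groups, at a rate that was not worked out. Of the 4 WT-labelled libraries, WT-labelled library 4, of list B, stood apart for Apc over all cells (52.3 CPM), in stem-like cells (56.2 CPM) and in lymphoid-like cells (51.7 CPM), and for Axin1 in Flt3-positive cells (25.2 CPM). Among differences from stem-like cells, knockout-labelled library 2 was the low value for Apc (-0.64) and for Bcl9l (-0.23) in lymphoid-like cells, where it had 39 cells. WT-labelled library 3 was the low value for Axin1 in granule-monocyte-like cells (-1.11), where it had 37 cells. WT-labelled library 1 was the high value for Gsk3a in G2/M-marked stem-like cells (0.86).

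Csnk1a1 moved in opposite directions by barcode list in granule-monocyte-like against stem-like cells, with a mean of 0.12 in list A and -0.06 in list B, and this difference was not tested.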

How the results depend on the processing

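In granule-monocyte-like cells Bcl9, Bcl9l and Apc were called under 16 of 16 alternatives, from -1.01 to -0.576 for Bcl9, -1.71 to -0.92 for Bcl9l and -0.915 to -0.366 for Apc. The other counts of members called moved as follows, and the cause was not tested. The numbers of all genes called moved over the alternatives too, with ranges given below, so these counts do not describe the members alone. Between the labels over all cells, 0 became 1 with list A alone, with no gene filter, with a mitochondrial share of at most 5% and with equal numbers of thinned cells, and 2 with DESeq2. It stayed at 0 when any list A library was left out. Leaving out a list B library in effect repeats the fit with list A alone. In Flt3-positive cells 1 became 2 with DESeq2 and without TMM factors, 0 with no gene filter, list A only, list B only, the knockout label only and thinned cells, and 0 to 2 when a library was left out. In lymphoid-like cells 2 became 1 with DESeq2, without TMM factors and with the WT label only, 0 with no gene filter, list A only, list B only, the knockout label only and thinned cells, and 0 to 1 when a library was left out. In megakaryocyte-like cells 3 became 1 with the WT label only and 0 with list A only and with thinned cells. In neutrophil-like cells 4 became 7 without TMM factors and 2 with thinned cells. Without TMM factors 1668 of all genes were called higher and 6159 lower there, against 3301 and 2998 in the main fit. In the G2/M comparison 3 became 6 over all kept cells and 0 with thinned cells. Of all genes, 5982 were called there in the main fit and 332 to 8393 over the alternatives. Reversed values were -0.18 for Csnk1a1 in granule-monocyte-like and -0.56 for Ctnnb1 in neutrophil-like cells without TMM factors, and -0.064 for Axin1 and 0.12 for Bcl9 in the G2/M comparison with thinned cells. Of 1576 alternatives of a member, 66 lost a call and 33 gained one. Fits without TMM factors and with list B only were chosen after seeing the data. Neutrophil-like cells could not be fitted in list B.

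With the replicate number as a block in place of the barcode list, 0 members were called in each label comparison (Bcl9l over all cells -1.02, SE 0.22, edgeR adjusted p = 0.18), and 1 gene was called in all over all cells against 162. Same-numbered libraries correlated at 0.69, 0.89 and -0.534. Knockout-labelled libraries 1 and 2 correlated best with the WT-labelled library of their own number, where their next best values were 0.392 and 0.636. Knockout-labelled library 3 correlated best with WT-labelled library 4 (0.928), the other list B library. The numbers thus did not match for replicate 3, and they were not taken as pairs. State and G2/M comparisons were made within libraries. Genes called ranged over the alternatives from 0 to 864 between the labels over all cells, 5692 to 9810 in granule-monocyte-like, 1723 to 5201 in Flt3-positive, 2089 to 5247 in lymphoid-like, 346 to 4039 in megakaryocyte-like and 2054 to 7827 in neutrophil-like cells, 332 to 8393 in the G2/M comparison, 3 to 105 for the interaction of label and list, and, between the labels, 0 to 167 in stem-like, 0 to 203 in Flt3-positive, 0 to 206 in granule-monocyte-like and 0 to 65 in lymphoid-like cells. Depth limits Axin2 in every comparison and the cofactors in the rare states.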
